A study of Mus musculus with 20 samples.

Results

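The 1700 RIKEN genes are mouse genes known by the name of a cDNA clone. RIKEN, a Japanese research institute, sequenced full-length clones from many mouse tissues, and clone names beginning with 1700 belong to libraries from adult testis. Many of these genes have never received a functional name, and they include protein-coding genes as well as long non-coding RNAs (lncRNAs). The adult testis makes transcripts of a very large number of genes, many of them in pachytene spermatocytes, the long-lived cells in which homologous chromosomes are synapsed, and in round spermatids, the haploid cells that will be reshaped into sperm.

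The members were all genes with a single array symbol of this clone form whose probe set of highest mean over the 20 arrays had a log2 signal of at least 7 in at least 2 arrays. They were 137 of the 200 such genes on the array, which carried 18193 genes with 1 symbol in all. The rule used the signals themselves, so the level and the fraction of highest signal of the members are descriptions. The arrays held RNA of cells sorted from the testes of C57BL/6 x DBA/2J F1 males of 10 to 16 weeks by fluorescence of the DNA dye Hoechst. There were 4 arrays of spermatogonia (Sp), 3 of pre-leptotene (pL), 3 of leptotene-zygotene (LZ), 1 of early-pachytene (eP), 2 of mid-pachytene (mP), 1 of late-pachytene (lP) and 2 of diplotene (D) spermatocytes, and 4 of round spermatids (RS), and each array was hybridised with RNA pooled from several sorts. All groups had the same genotype, strain, sex and age range and were defined by the sort gate. All values are GC-RMA signals on the log2 scale, where a difference of 1 is 2-fold. Signals of different probe sets depend on their probes as well as on the RNA. Where members are named for a high signal, or medians of gene sets are given, these are descriptions of signal and not of amounts of RNA.

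The clone names were followed to the mouse reference annotation for 132 members. Of the 137, 66 were protein-coding, 59 were lncRNAs, 7 were pseudogenes and 5 were not matched. The matched members lay on 19 autosomes (128 members) and on chromosome X (4 members), and 0 lay on chromosome Y. No member had a functional name as its current symbol, although a few carried one as a synonym, such as Ccdc179 for 1700015G11Rik, mage-g2 for 1700020D05Rik and Slx2 for 1700013H16Rik.

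Most members had their highest fraction mean late. Spermatogonia held the highest mean of 14 of the 137 members (10.2%), pre-leptotene and leptotene-zygotene cells that of 0, the early-pachytene array that of 2, mid-pachytene cells that of 1, the late-pachytene array that of 13 (9.49%), diplotene cells that of 16 (11.7%) and round spermatids that of 91 (66.4%). In all, 121 members (88.3%) peaked in the fractions from mid-pachytene on. With Sp 1 and Sp 2 left out, 1 member peaked in spermatogonia, 104 in round spermatids and 134 from mid-pachytene on. Pre-leptotene cells held the lowest mean of 99 members (72.3%). Among genes past the same signal threshold, round spermatids held the highest mean of 66.5% of the 176 RIKEN genes named from other testis libraries, with clone names in 49 (written 49xx), of 29.3% of the 147 other RIKEN genes and of 23.8% of the 9527 genes with other names. The fractions from mid-pachytene on held it for 94.3%, 68% and 51.8% of these 3 sets in the same order. The threshold was passed by 68.5% of the 1700 RIKEN genes on the array, 42.2% of those of the other testis libraries, 21.7% of the other RIKEN genes and 56.4% of the genes with other names. The share peaking in round spermatids was 66% of 147 members at a threshold of 6 and 66.4% of 122 members at 8.

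**Figure D1:**
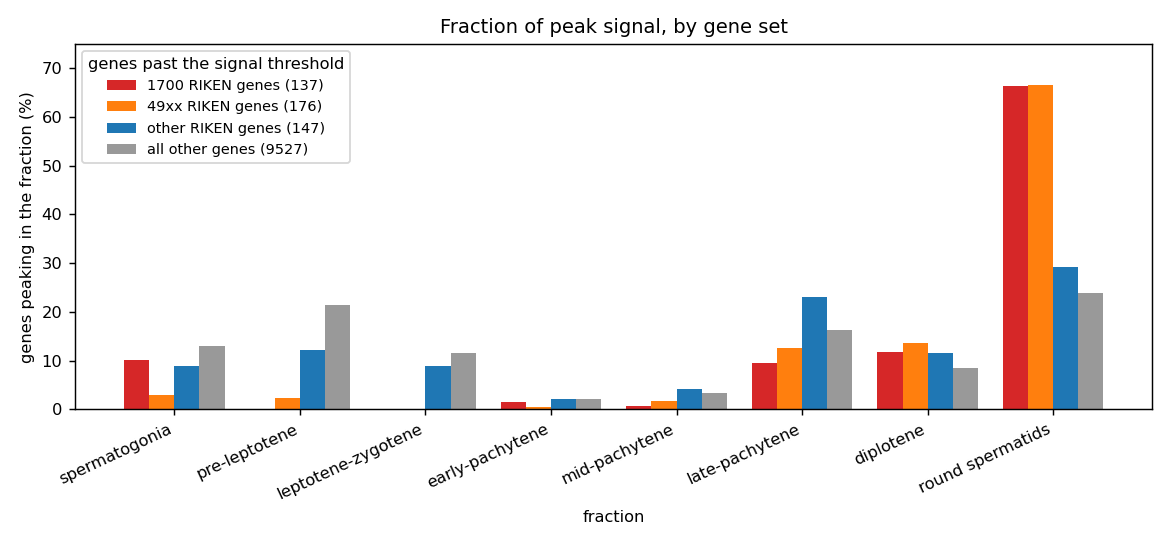
Percent of genes whose highest fraction mean lay in each of the 8 fractions, for the 137 members, the 176 RIKEN genes of other testis libraries (49xx), the 147 other RIKEN genes and the 9527 other genes past the same signal threshold. Bars start at 0. Round spermatids held 66.4% of the members and 66.5% of the 49xx genes, against 29.3% and 23.8% in the other sets.

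The median over the 137 members of the fraction mean was 6.64 in Sp, 5.22 in pL, 6.73 in LZ, 8.62 in eP, 8.39 in mP, 7.82 in lP, 9.11 in D and 10.32 in RS. The same median over the 176 RIKEN genes of the other testis libraries was 4.14 in Sp, 3.59 in pL, 4.62 in LZ, 6.53 in eP, 6.66 in mP, 6.88 in lP, 7.63 in D and 8.50 in RS, so it too was lowest in pL and highest in RS. Over the 147 other RIKEN genes it lay between 7.24 and 8.13, and over all 9850 other genes past the threshold between 8.42 and 8.62. The number of members with a mean of at least 7 was 60 in Sp, 27 in pL, 64 in LZ, 101 in eP, 95 in mP, 84 in lP, 105 in D and 125 in RS. Round spermatids were the fraction in which most members passed this level, and pre-leptotene cells the fraction in which fewest did. The difference between the highest and the lowest fraction mean of a member had a median of 5.17 and ran from 0.67 to 9.43, and it was at least 4 in 104 members. In 21 members every fraction mean was at least 7. In 10 members only round spermatid arrays reached 7, so these 10 entered through the fraction in which they were high. Members that reached 7 on Sp arrays alone were not counted. Of those peaking in Sp, 1700034G24Rik and 1700031F10Rik had Sp means of 6.33 and 5.82, so no fraction mean of theirs reached 7. The Sp peak of any member that entered through Sp arrays is a description.

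**Figure D2:**
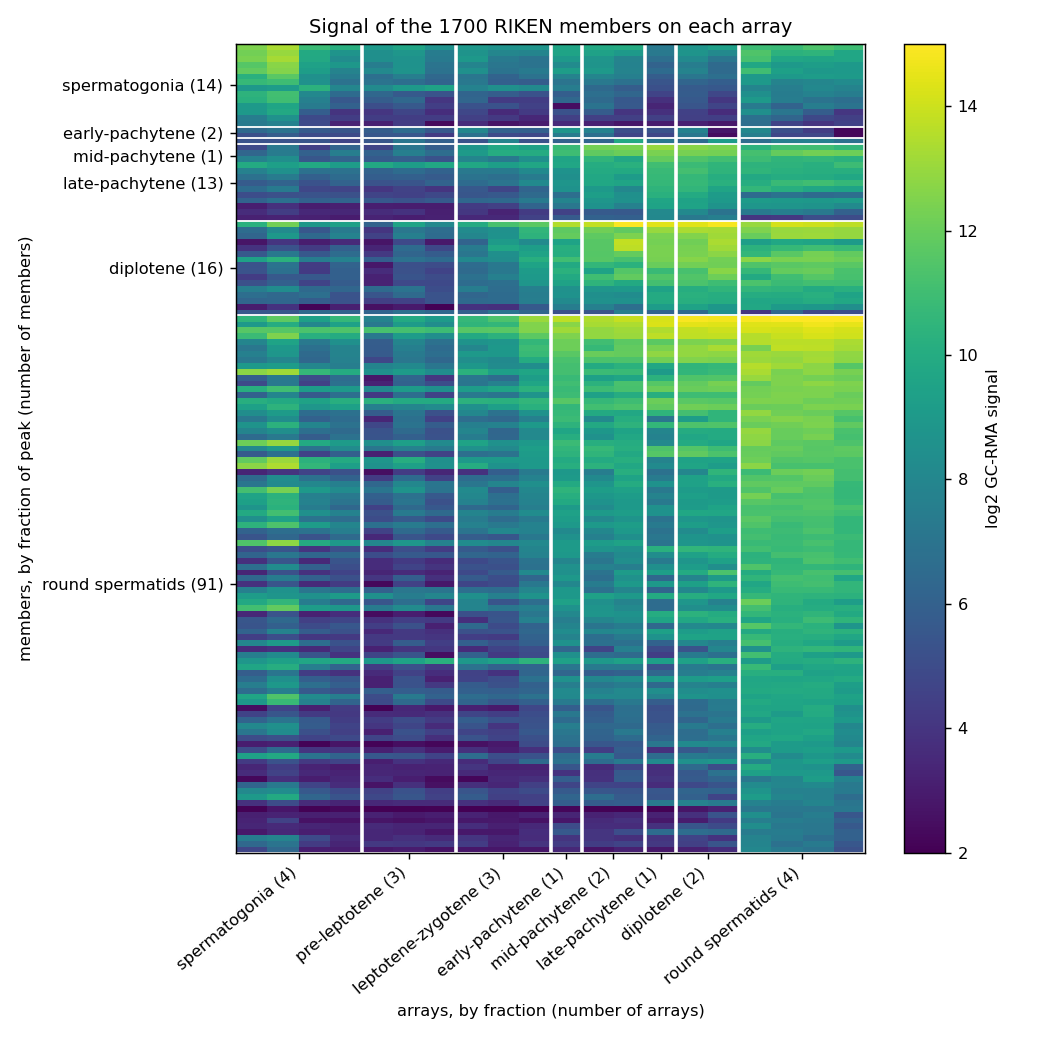
Log2 GC-RMA signal (colour) of the 137 members (rows, grouped by fraction of peak and sorted by peak mean) on the 20 arrays (columns, grouped by fraction). The 91 members at the bottom peak in round spermatids, and the 14 at the top peak in spermatogonia, with the brightest cells on 2 of the 4 spermatogonia arrays.

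The fraction of peak was also read by class of gene. Round spermatids held the peak of 48 of 66 protein-coding members (72.7%), 32 of 59 lncRNAs (54.2%) and 7 of 7 pseudogenes. The late-pachytene array or the diplotene fraction held the peak of 20 of 59 lncRNAs (33.9%) and of 9 of 66 protein-coding members (13.6%). Spermatogonia held the peak of 4 lncRNAs and of 9 protein-coding members. These shares rest on the same arrays and were not tested.

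The sorted fractions were read against markers of the cell types. The log2 of the summed signal of 7 spermatogonial markers was 14.43 to 15.07 in Sp, 14.74 to 15 in pL, 14.81 to 15.09 in LZ, 14.04 in eP, 13.33 to 13.84 in mP, 11.09 in lP, 8.74 to 10.13 in D and 6.97 to 10.03 in RS. This list did not set Sp apart from pL and LZ. That of 5 pachytene markers was 12.50 to 14.60 in Sp, 11.05 to 12.33 in pL, 13.35 to 14.56 in LZ, and between 15.10 and 16.34 from eP to RS. The sum on every Sp array thus lay above that on the pL arrays. By gene this held for Pgk2 and Adam3. The Sp and pL arrays of Ldhc and Ccna1 overlapped, and Piwil1 had means of 7.29 in Sp and 7.83 in pL. The Sp arrays also had high signals of some spermatid genes. The mean log2 signal of Prm1, Prm2, Tnp1 and Tnp2, which encode the protamines and transition proteins of condensing spermatids, was 14.87, 15.23, 13.96 and 13.24 on Sp arrays 1 to 4. It was 12.20 to 12.80 in pL, 11.38 on the lP array and 14.63, 13.78, 14.04 and 14.17 on RS arrays 1 to 4. The ranges of the RS and Sp arrays overlapped, and the 2 highest values were those of Sp 1 and Sp 2. The whole list of 8 spermatid markers summed to 16.55 to 16.98 in RS and 15.53 to 17.61 in Sp. Its members differed. Odf1 and Gapdhs had means of 13.01 and 12.51 in Sp, against 12.96 and 12.18 in RS. Acrv1 and Spaca1 were far lower in Sp, with means of 7.59 and 7.29, against 13.34 and 12.79 in RS. A list of 7 macrophage markers summed to 9.77 to 11.22 in Sp, 5.60 to 10.12 in pL, at most 5.92 in the fractions from LZ to D and up to 6.71 in RS. Of 7 Sertoli cell markers, only Clu reached 7 on any array. The Sertoli list summed to 11.12 to 11.76 in Sp, 11.02 to 12.30 in pL and 12.19 to 12.65 in LZ. It summed to 12.54 in eP, 11.25 to 12.63 in mP, 9.85 in lP, 10.25 to 12.27 in D and 8.79 to 12.40 in RS. Of 4 measured Leydig cell markers, only Cyp17a1, an enzyme of androgen synthesis, reached 7, and the list summed to 6.21 to 7.86 in Sp, 5.32 to 6.92 in pL, 7.89 to 8.31 in LZ, 7.12 in eP, 7.16 to 7.84 in mP, 5.34 in lP, 6.49 to 6.89 in D and 6.26 to 8.40 in RS. In sorted pools a change in the share of cells and a change in RNA per cell cannot be told apart.

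**Figure D3:**
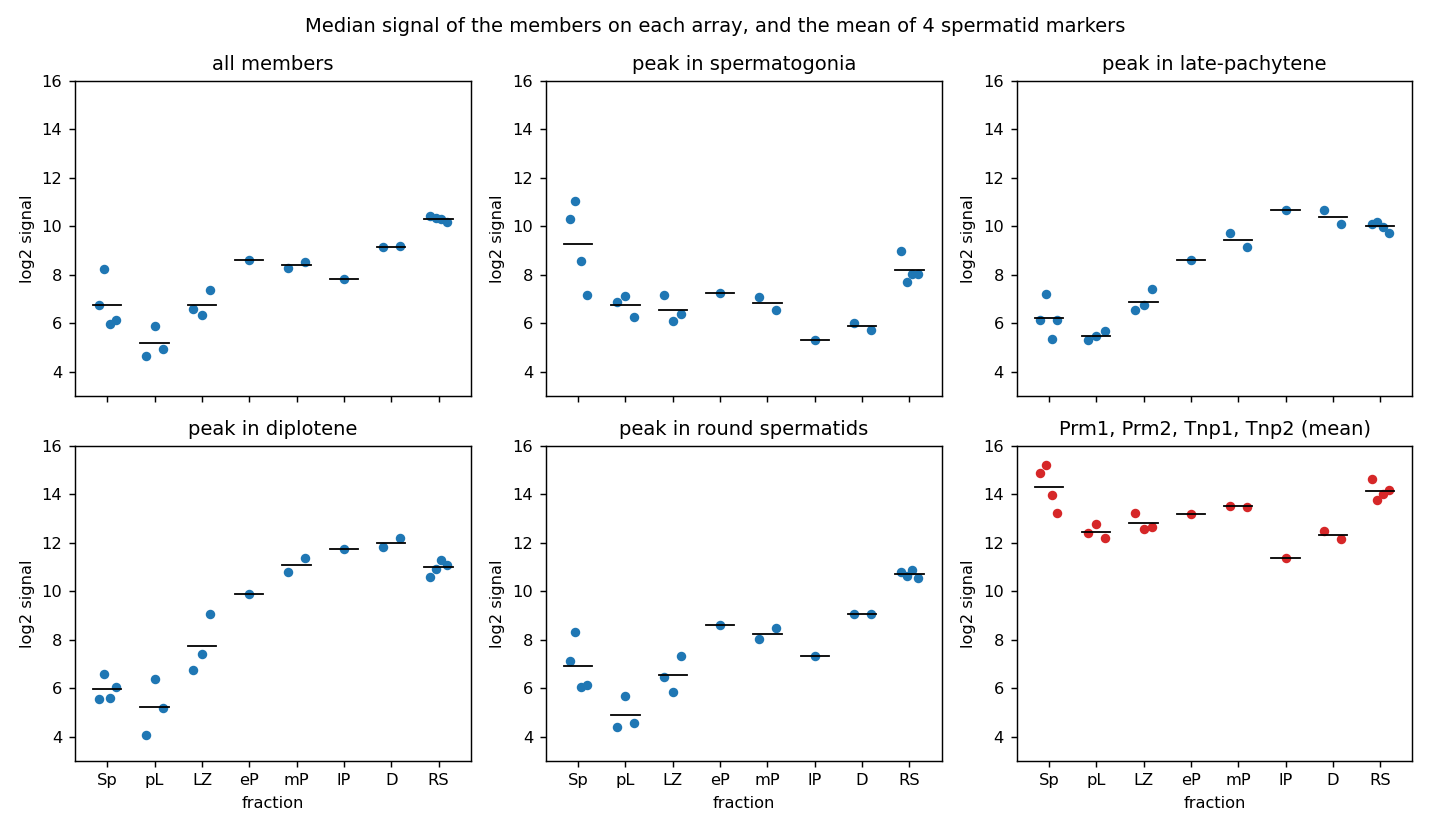
Points are arrays (4 Sp, 3 pL, 3 LZ, 1 eP, 2 mP, 1 lP, 2 D, 4 RS) and short lines are fraction means, on the log2 scale. Blue panels show the median over all members and over those peaking in Sp, lP, D and RS, and the red panel the mean of Prm1, Prm2, Tnp1 and Tnp2. The median over members peaking in Sp and the red panel both are highest on Sp array 2, at 11.04 and 15.23.

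Promoters of 109 members were in the RefSeq table (build GRCm38.p6), with 126 windows of 300 bases, from 250 bases before to 50 after a start site. Their median GC content was 51.5%, against 52.7% over all 32851 windows of the table. A motif bound by RFX factors, which act in spermatids (GTTGCCA, either strand), was in 8.73% of the members' windows and 4.38% of all windows. A motif bound by MYB factors (CNGTTA), of which MYBL1 acts in pachytene spermatocytes, was in 31% and 23.3%. The TATA box (TATAAA) was in 8.73% and 13.6%, and the cyclic AMP response element (TGACGTCA), bound by CREM in spermatids, in 0.794% and 1.79%. All 4 were searched on both strands, and none of them contains another. Over members peaking in round spermatids the RFX motif was in 10 of 80 windows (12.5%) and the cyclic AMP response element in 0 of 80, and over those peaking in diplotene cells the RFX motif was in 0 of 14. A match says only that these letters are in the window.

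The 250 bases before the start site follow for 4 members, chosen from those named for their peak level or their largest change, with matches of the 4 motifs in capitals. They are shown because the first pair belong to members of high signal, at 14.62 ± 0.29 in D for 1700008K24Rik (SD, n = 2) and 14.51 ± 0.15 in RS for 1700010I14Rik (SD, n = 4), and the other pair to a member with a large difference between LZ and pL and to the member with the largest difference between pL and Sp. All lie 5′ to 3′ on the strand given.
1700008K24Rik (GRCm38.p6, chr17:49113534-49113783, minus strand): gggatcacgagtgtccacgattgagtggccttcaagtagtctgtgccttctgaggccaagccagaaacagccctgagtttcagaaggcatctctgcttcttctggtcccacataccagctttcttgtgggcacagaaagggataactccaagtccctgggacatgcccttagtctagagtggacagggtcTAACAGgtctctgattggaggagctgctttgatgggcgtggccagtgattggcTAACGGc
1700010I14Rik (GRCm38.p6, chr17:8988083-8988332, plus strand): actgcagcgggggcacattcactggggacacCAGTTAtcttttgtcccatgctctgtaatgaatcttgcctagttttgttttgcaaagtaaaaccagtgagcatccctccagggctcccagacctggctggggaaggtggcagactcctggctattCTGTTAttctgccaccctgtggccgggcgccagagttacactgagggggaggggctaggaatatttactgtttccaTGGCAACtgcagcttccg
1700029M20Rik (GRCm38.p6, chr4:135626405-135626654, plus strand): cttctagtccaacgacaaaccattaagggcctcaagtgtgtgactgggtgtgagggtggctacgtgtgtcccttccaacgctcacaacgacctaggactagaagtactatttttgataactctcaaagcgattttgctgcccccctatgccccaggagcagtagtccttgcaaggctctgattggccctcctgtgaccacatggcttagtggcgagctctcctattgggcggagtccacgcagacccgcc
1700016C15Rik (GRCm38.p6, chr1:177729564-177729813, plus strand): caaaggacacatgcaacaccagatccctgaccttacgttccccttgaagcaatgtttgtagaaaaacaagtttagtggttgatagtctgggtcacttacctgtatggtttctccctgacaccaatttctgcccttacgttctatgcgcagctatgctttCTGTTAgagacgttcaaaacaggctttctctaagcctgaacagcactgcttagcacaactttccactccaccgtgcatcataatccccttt
In the promoter of 1700010I14Rik an RFX motif lay 18 to 12 bases before the start, 2 more RFX matches lay within the 50 bases after it, and MYB motifs lay 219 to 214 and 94 to 89 bases before it. The promoter of 1700008K24Rik held MYB motifs 60 to 55 and 7 to 2 bases before the start and another at bases 17 to 22 after it. The promoter of 1700016C15Rik held 1 MYB motif, 91 to 86 bases before the start, and that of 1700029M20Rik held 0 matches of the 4 motifs.

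A few members shared a divergent promoter region with another gene. For 16 of the 109 members (14.7%) the start of another gene lay within 1000 bases upstream on the opposite strand, against 12.3% of all 27025 genes in the table. Of the 12 partners measured past the signal threshold, 4 peaked in the same fraction as the member. Across the 8 fraction means, which come from the same arrays, the correlation of member and partner had a median of 0.84 and ran from -0.94 to 0.98. The lncRNA 1700097N02Rik lay beside Dnah8, an axonemal dynein heavy chain, with a correlation of 0.97, and the lncRNA 1700015C15Rik lay beside the kinase gene Cdk20, with 0.90. The protein-coding 1700037C18Rik lay beside Cluap1, a gene of intraflagellar transport, with 0.92, and both peaked in round spermatids. Others ran against their partner. The lncRNA 1700007L15Rik peaked on the lP array and its partner Zfp148, a zinc finger factor, in pL, with a correlation of -0.94. The protein-coding 1700088E04Rik peaked on the lP array and Polr2f, a subunit of RNA polymerases, in pL, with -0.85. The lncRNA 1700040D17Rik ran only weakly against its partner Tdrkh, a gene of the piRNA pathway, with -0.27. It peaked on the lP array and Tdrkh in pL, and both were lower in RS than in D.

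The 5 comparisons of neighbouring fractions with more than 1 array each were fitted with limma over 22396 probe sets, two-sided, and a difference was called at a Benjamini-Hochberg adjusted p under 0.05. Members had to be high in some fraction to pass the signal rule, so counts of called members are given beside those of all tested probe sets and of the 9850 other genes past the same rule.

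**Figure D4:**
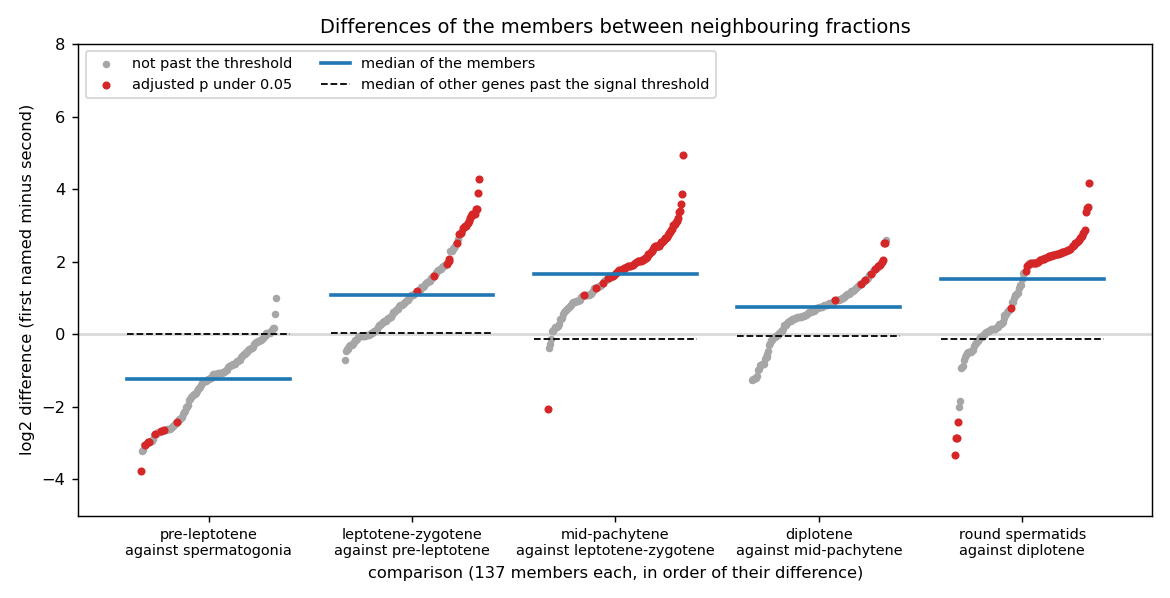
Log2 difference of each of the 137 members in the 5 comparisons, first-named fraction minus second, in order of size. Red points passed an adjusted p of 0.05, the blue line is the median of the members (-1.23, 1.09, 1.65, 0.75 and 1.53 from left to right) and the dashed line that of the other genes past the same signal rule.

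Pre-leptotene cells had lower signals than spermatogonia for most members. The median difference was -1.23, 126 of 137 members were lower, and 8 were called lower by limma. Over all tested probe sets 0.415% were called lower, and over the other genes past the rule 0.619%, with a median difference of 0.00. Of the 8 called members 7 were protein-coding and 1 was a pseudogene. Called higher were 0 members, against 0.0714% of all tested probe sets and 0.0203% of the other genes, with 0 at an unadjusted p of 0.05 too and 77 lower at that level. 1700016C15Rik had the largest difference, with 4.32, 5.23 and 4.23 in pL, against 9.63, 10.12, 7.57 and 6.13 in Sp (log2 difference -3.77, SE 0.70, adjusted p = 0.0408 from limma). All 3 pL arrays lay below all 4 Sp arrays, which the choice of named genes required, and the Sp arrays themselves differed widely. 1700057G04Rik had 3.21, 5.30 and 4.17 in pL, against 7.54, 8.93, 6.73 and 5.92 in Sp (-3.05, SE 0.57, adjusted p = 0.0408). The pseudogene 1700019M22Rik had 8.53, 9.14 and 8.32 in pL, against 12.74, 13.17, 10.68 and 9.98 in Sp (-2.98, SE 0.59, adjusted p = 0.0484). In these 3 genes the Sp arrays ranked in the order of their protamine and transition protein signal, highest on array 2 and lowest on array 4. 1700019N19Rik, 1700013G24Rik and 1700012B07Rik differed by -2.97, -2.75 and -2.68. In the first 2 genes some pL signals lay under log2 5, near background, and with values under 5 raised to 5 their differences were -3.28 and -2.18. With these raised values 0 members were called, so the called members lay near the threshold. Leaving out Sp 1, pL 1, pL 3 or any 1 array of the LZ, mP, D or RS fractions gave 0 calls, with 58 to 81 members at an unadjusted p of 0.05, and leaving out Sp 2, Sp 3 or Sp 4 gave 1, 20 or 45. With Sp 1 and Sp 2 both left out the median was -0.77 and 0 members were called. The part of the protamine and macrophage signals in this difference was not tested.

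The 14 members with their highest mean in spermatogonia are only described, since they were chosen by their signal on the Sp arrays. Their median on the Sp arrays was 10.32, 11.04, 8.56 and 7.18. It was 5.29 on the lP array and 9.0, 7.68, 8.03 and 8.03 on the RS arrays. The correlation of a member with the mean of Prm1, Prm2, Tnp1 and Tnp2 over the 20 arrays had a median of 0.92 among these 14, 0.34 among the 91 that peaked in round spermatids, -0.02 among the 16 that peaked in diplotene cells and -0.07 among the 13 that peaked in late-pachytene. The correlation ran from 0.43 to 0.94 among the 14 and from -0.18 to 0.95 among the 91. The mean of these 4 genes was itself highest on Sp 1 and Sp 2. A high correlation among the 14 is therefore partly fixed by their choice. Of the 14, 13 were highest among the Sp arrays on Sp 2, as were 120 of all 137 members. 1700016H13Rik had 10.92, 10.81, 11.38 and 10.98 in RS and 12.47, 13.37, 10.84 and 10.15 in Sp, and the 2 groups overlapped. 1700001C19Rik had 11.43, 10.34, 10.46 and 9.71 in RS and 12.22, 12.99, 9.90 and 8.72 in Sp. 1700015G11Rik, with the synonym Ccdc179, had 11.21, 9.70, 9.59 and 9.68 in RS and 12.38, 13.24, 9.85 and 8.30 in Sp. In all 3 the second highest fraction mean was that of round spermatids, and Sp 4 had the lowest Sp signal. With Sp 1 and Sp 2 left out, 1 member in place of 14 had its highest mean in spermatogonia. These 2 arrays held the highest medians of the 14, so this fall too is partly fixed by the choice. The member of the 14 that was not highest on Sp 2 was the X-linked 1700013H16Rik, which was highest on Sp 3.

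Leptotene-zygotene cells had higher signals than pre-leptotene cells for 112 members, with a median difference of 1.09. Called higher were 24 members (17.5%), against 1.86% of all tested probe sets and 2.79% of the other genes past the rule. Called lower were 0 members by limma, and 0 at an unadjusted p of 0.05, against 0.165% and 0.0305% called lower in the 2 backgrounds. Of the 16 members that peaked in diplotene cells 9 were among those called, and of the 91 that peaked in round spermatids 10. These counts are not independent of the grouping, since peaks were read from the same means. The protein-coding 1700006A11Rik had 6.12, 9.06 and 8.20 in LZ, against 2.76, 4.89 and 2.89 in pL (log2 difference 4.28, SE 0.73, adjusted p = 0.0105 from limma). The lncRNA 1700029M20Rik had 7.42, 9.71 and 9.25 in LZ, against 3.36, 6.55 and 4.80 in pL (3.89, SE 0.78, adjusted p = 0.0213). 1700102P08Rik had 8.77, 9.74 and 9.41 in LZ, against 4.65, 7.04 and 5.84 in pL (3.46, SE 0.62, adjusted p = 0.016). In these 3 every LZ array lay above every pL array, which the choice of named genes required, and pL 2 was the highest of the pL arrays. Signals of the first 2 genes in pL lay partly or wholly under log2 5, and with values under 5 raised to 5 their differences were 2.79 and 3.28. The lncRNA 1700110I01Rik differed by 3.44, 1700018F24Rik by 3.32 and 1700104B16Rik by 3.32, the last between means of 5.90 and 2.57, so that with values under 5 raised to 5 its difference was 0.90 and not called. Of the Leydig markers Cyp17a1 moved most in the same direction, with 7.59, 7.38 and 7.57 in LZ, against 2.22, 4.29 and 5.28 in pL. The list summed to 7.89 to 8.31 in LZ, against 5.32 to 6.92 in pL. Hsd3b1 and Cyp11a1 had low means of 4.38 and 4.07 in LZ, against 3.09 and 3.21 in pL. Star did not move, with 5.44 in LZ and 5.45 in pL. The part of the Leydig signal in the difference of the members was not tested. The number called was 2 without pL 1, 4 without pL 3, 1 without LZ 3, 14 without LZ 2, 14 without RS 2 or RS 3, and 15 without D 1, D 2 or RS 4.

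Mid-pachytene cells had higher signals than leptotene-zygotene cells for 133 of 137 members, with a median difference of 1.65. Called higher were 62 members (45.3%), against 13.7% of all tested probe sets and 18.3% of the other genes past the rule. Called lower was 1 member (0.73%), against 15.3% and 18.2%. The calls held 15 of the 16 members that peaked in diplotene cells, 12 of the 13 that peaked in late-pachytene and 35 of the 91 that peaked in round spermatids. Peaks were read from the same fraction means, so these counts are partly fixed by the grouping. Of lncRNAs 30 of 59 were called higher, and of protein-coding members 27 of 66. 1700006A11Rik had 11.64 and 13.81 in mP, against 6.12, 9.06 and 8.20 in LZ (log2 difference 4.93, SE 0.81, 30.6-fold, adjusted p = 0.000651 from limma). 1700029M20Rik had 11.62 and 13.69 in mP, against 7.42, 9.71 and 9.25 in LZ (3.86, SE 0.87, adjusted p = 0.00442). Both were about 2 log2 units higher on mP 2 than on mP 1. The protein-coding 1700029P11Rik had 11.01 and 11.86 in mP, against 6.86, 7.64 and 9.05 in LZ (3.58, SE 0.71, adjusted p = 0.00203). The lncRNA 1700008K24Rik had 13.79 and 14.92 in mP, against 9.95, 11.21 and 11.71 in LZ (3.40, SE 0.93, adjusted p = 0.0133). Among the other large differences were those of the lncRNAs 1700006J14Rik (3.38, SE 0.72) and 1700063H04Rik (3.21, SE 0.48). The member called lower was 1700013H16Rik on chromosome X, with 6.45 and 5.82 in mP, against 7.78, 8.53 and 8.24 in LZ (-2.05, SE 0.52, adjusted p = 0.00882). The number called in either direction was 63, and it was 34 without LZ 1, 30 without LZ 2 and 15 without mP 2.

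Diplotene cells differed less from mid-pachytene cells. The median difference was 0.75, 109 members were higher, and 11 were called higher (8.03%), against 6.56% of all tested probe sets and 6.72% of the other genes past the rule, so the share of members called was close to the background. Called lower were 0 members by limma, and 0 at an unadjusted p of 0.05, against 12.7% and 17.6% called lower in the 2 backgrounds. Of the 11 called members 9 were lncRNAs, 1 was a pseudogene and 1 was protein-coding. The pseudogene 1700065I16Rik had 9.55 and 9.51 in D, against 6.71 and 7.31 in mP (log2 difference 2.52, SE 0.52, adjusted p = 0.00303 from limma). The lncRNA 1700116B05Rik had 8.21 and 8.0 in D, against 5.53 and 5.65 in mP (2.51, SE 0.67, adjusted p = 0.0147). The lncRNA 1700069L16Rik had 6.66 and 6.48 in D, against 3.99 and 5.08 in mP (2.04, SE 0.48, adjusted p = 0.00704). The arrays of the 2 fractions did not overlap in these genes, which the choice of named genes required. Of all 137 members 94 had arrays that did not overlap (68.6%), against 57.2% of all tested probe sets and 65.1% of the other genes past the rule. The lncRNAs 1700023F02Rik and 1700015C15Rik differed by 2.00 and 1.90, and the protein-coding 1700125H20Rik by 1.88. The number called was 1 without mP 1, 4 without mP 2, 4 without D 1 and 3 without D 2.

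Round spermatids had higher signals than diplotene cells for 107 members, with a median difference of 1.53. Called higher were 44 members (32.1%), against 10.9% of all tested probe sets and 12.8% of the other genes past the rule, and called lower were 4 (2.92%), against 14.2% and 15.8%. Of protein-coding members 28 of 66 were called higher, with a median difference of 1.96, and of lncRNAs 10 of 59, with a median of 0.32. Of the 10 members that reached 7 on RS arrays alone 8 were called higher, and they had been chosen through their RS signal. Of the other 127 members 36 were called higher (28.3%). The pseudogene 1700007E05Rik had 8.58, 10.42, 10.59 and 10.49 in RS, against 5.32 and 7.99 in D (log2 difference 3.37, SE 0.81, adjusted p = 0.00662 from limma). Its RS and D arrays did not overlap, which the choice of named genes required. The lncRNA 1700048F04Rik differed by 2.79. The other 4 genes named for this comparison were members only through their RS arrays, so their values are given as a description. The lncRNA 1700120E14Rik had 7.16, 7.20, 7.13 and 7.19 in RS, against 2.75 and 3.26 in D, and lay between 1.95 and 2.79 on the 14 arrays of the other 6 fractions. The lncRNA 1700007J10Rik had 7.56, 7.53, 7.27 and 6.09 in RS, against 2.99 and 4.23 in D. 1700126A01Rik, which the reference table did not hold, had 8.02, 7.37, 6.94 and 5.23 in RS, against 3.15 and 3.67 in D. In these 3 the D signals were under log2 5, near background, and with values under 5 raised to 5 the differences were 2.17, 2.11 and 1.89. The lncRNA 1700095A21Rik had means of 8.94 in RS and 6.07 in D.

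Of the 4 members called lower in round spermatids than in diplotene cells, 3 were lncRNAs. 1700006A11Rik had 9.30, 9.76, 9.58 and 9.07 in RS, against 12.16 and 13.36 in D (log2 difference -3.33, SE 0.77, adjusted p = 0.00508 from limma). The lncRNA 1700100I10Rik had 4.05, 4.14, 5.10 and 5.02 in RS, against 7.27 and 7.60 in D (-2.86, SE 0.35, adjusted p = 5.81e-05). The lncRNA 1700040D17Rik had 6.56, 6.95, 6.55 and 6.71 in RS, against 9.96 and 9.13 in D (-2.85, SE 0.32, adjusted p = 3.5e-05). These 3 were also called higher in mP than in LZ, and the last 2 were highest on the single lP array, at 8.06 and 10.24. The lncRNA 1700028E10Rik had 4.02, 6.29, 4.78 and 5.07 in RS, against 6.45 and 8.49 in D (-2.43, SE 0.66, adjusted p = 0.0135). Of all members, 3 were called higher in mP than in LZ and lower in RS than in D, 8 were called higher in both steps, 51 in the first only and 35 higher in the second only. The number called in either direction in RS against D was 48, and it was 12 without D 1, 22 without D 2 and 31 without RS 1 or RS 3.

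Of the members that peaked in round spermatids, 6 were named for their signal in that fraction, and they had high signals in earlier fractions too. The pseudogene 1700123L14Rik, with the synonyms Nup50 and Npap60 (Nup50 is a nuclear pore protein), had fraction means of 10.58, 8.93, 11.69, 13.68, 13.66, 14.23, 14.84 and 14.97 from Sp to RS. Its probe set was not checked against the functional gene of that name, so the source of the signal is uncertain. The protein-coding 1700010I14Rik had 9.12, 8.24, 11.21, 12.71, 13.35, 14.24, 14.41 and 14.51 in the same order, and its 4 RS arrays lay between 14.36 and 14.72. 1700074P13Rik, with the synonym Tryx5, had 10.88, 8.27, 10.65, 12.47, 12.96, 13.69, 13.80 and 13.94. In all 3 the last 3 fractions differed by less than 1 log2 unit. The pseudogene 1700018B24Rik had 14.20 ± 0.10 in RS (SD, n = 4) and 11.48 ± 0.13 in Sp (SD, n = 4), the lncRNA 1700086L19Rik had 13.56 ± 0.13 in RS and 8.30 ± 0.97 in Sp, and 1700020D05Rik, with the synonym mage-g2, had 13.26 ± 0.67 in RS and 7.68 ± 0.94 in Sp.

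The members that peaked in round spermatids were split by whether the lP signal lay below the mP mean. This split itself fixes the direction between mP and lP in each part. Of all 137 members 69 lay below and 68 did not, with a median difference of -0.01. In 50 of the 91 the lP signal was below the mP mean, with a median of 7.69 in mP, 6.52 in lP and 10.40 in RS, and in 41 it was not, with 8.72 in mP, 9.97 in lP and 10.78 in RS. The lP array also had the lowest mean signal of Prm1, Prm2, Tnp1 and Tnp2, 11.38. With 1 array of this fraction the dip of the members has no replicate.

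The members named for a peak in late-pachytene or diplotene cells had higher means in mP than in LZ. Their choice by peak partly fixes this. 1700102P08Rik had fraction means of 5.68, 5.84, 9.31, 10.77, 12.34, 12.98, 12.60 and 10.75 from Sp to RS. The lncRNA 1700020N01Rik had 6.84, 6.79, 9.71, 10.98, 11.96, 12.40, 12.31 and 11.88, and the lncRNA 1700097N02Rik had 6.93, 5.64, 7.91, 9.61, 10.14, 11.94, 11.23 and 10.60. The lncRNA 1700008K24Rik had 10.18, 7.92, 10.96, 13.49, 14.36, 14.43, 14.62 and 13.71. 1700010B08Rik had 6.95, 5.92, 9.14, 11.80, 12.02, 13, 13.32 and 12.88, and the lncRNA 1700028J19Rik had 7.34, 6.23, 9.0, 11.95, 12.09, 12.41, 12.85 and 12.75. In each of them the neighbours lP and D differed by less than 1 log2 unit, so the fraction of peak is not settled by these arrays. The only member with its peak in mid-pachytene, the lncRNA 1700012D14Rik, had 6.60 and 9.19 in D and 6.22 and 9.87 in mP.

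**Figure D5:**
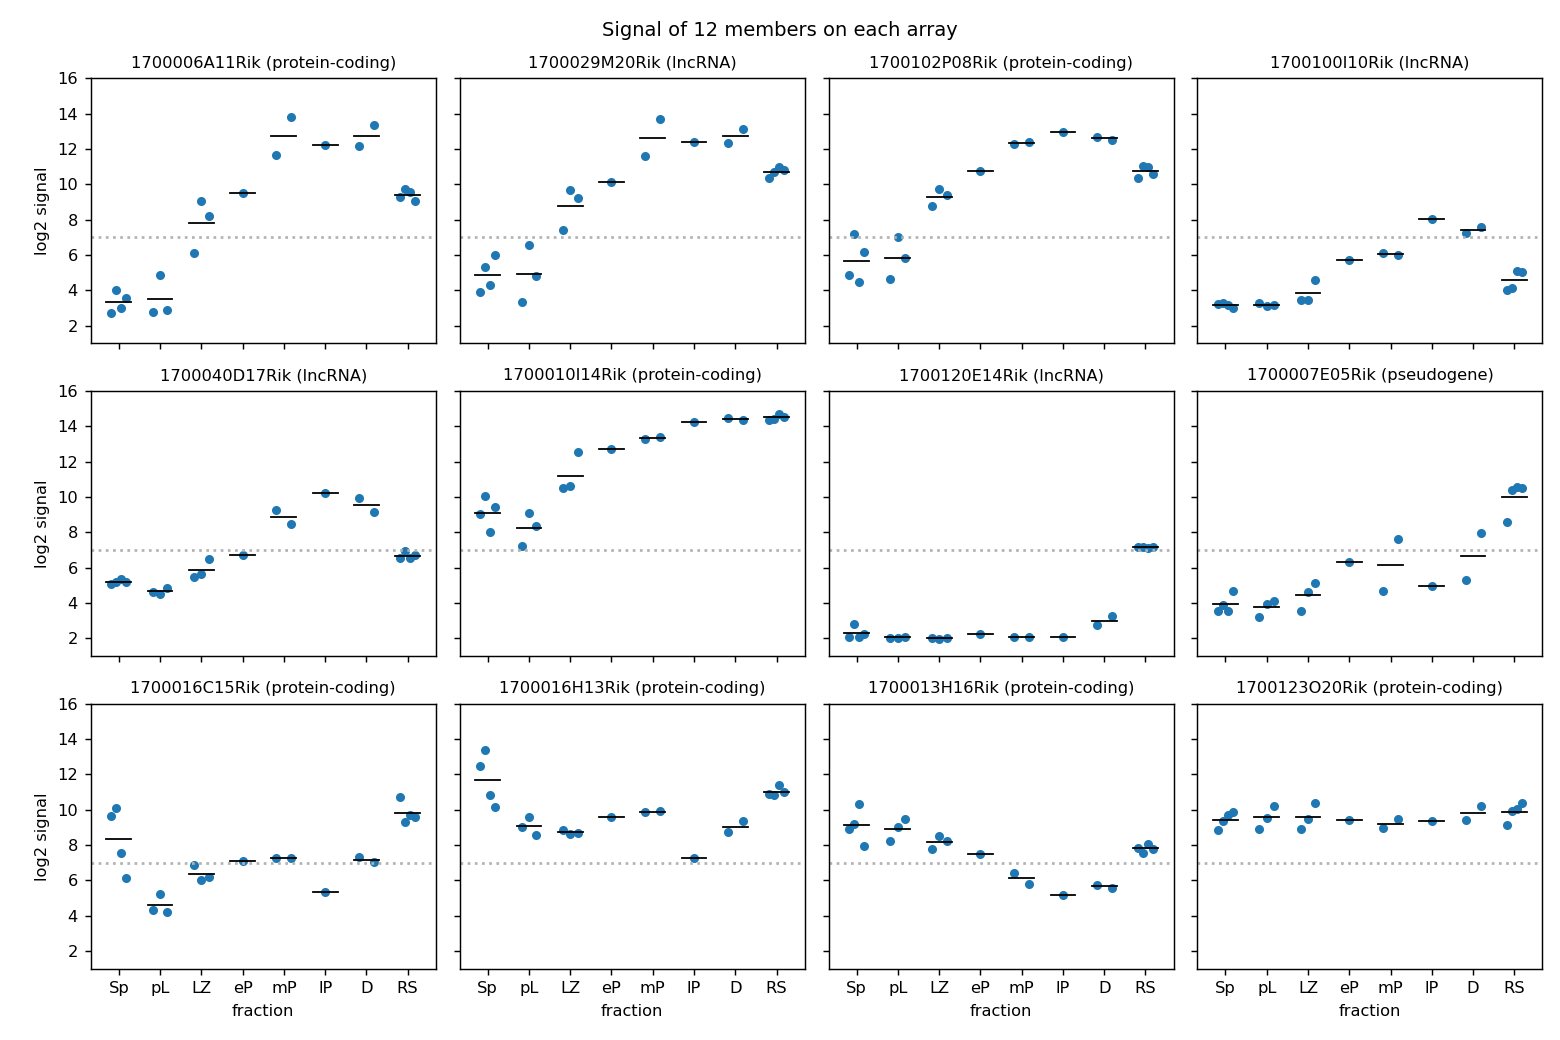
Log2 signal of 12 members on each array (points) with fraction means (lines), and the member threshold of 7 (dotted). 1700006A11Rik and 1700029M20Rik are highest from mP to D, 1700120E14Rik is above 7 only in RS, 1700016H13Rik is highest on Sp 2, 1700013H16Rik is lowest on the lP array and 1700123O20Rik varies as much within as between fractions.

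The 4 members on chromosome X, which is silenced in pachytene spermatocytes, followed different courses. 1700013H16Rik, with the synonyms Slx2 and Xlr6 of an X-linked multicopy family, had fraction means of 9.12, 8.90, 8.18, 7.49, 6.13, 5.17, 5.66 and 7.82 from Sp to RS, and its probe set may read related copies, which was not tested. Its RS arrays lay at 7.86, 7.54, 8.09 and 7.79, against 5.74 and 5.58 in D (log2 difference 2.16, SE 0.49, adjusted p = 0.00466 from limma). 1700080O16Rik had 9.07, 9.65, 9.61 and 8.97 in RS, against 6.25 and 7.37 in D, and 5.34 on the lP array. The lncRNAs 1700011M02Rik and 1700018G05Rik were highest on the single eP array, at 8.78 and 7.39. Both spread widely within fractions. 1700011M02Rik had 8.03, 5.18, 4.37 and 2.24 in RS, against 7.78 and 2.80 in D, and 1700018G05Rik had 7.58, 4.75, 4.77 and 2.24 in RS, against 7.15 and 2.42 in D. On the same arrays both genes were high or low together.

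At the edge of the signal rule, the second highest array was 7.19 for 1700120E14Rik, 7.20 for 1700031L13Rik and 7.29 for 1700063D05Rik, just inside, and 6.94 for 1700084F23Rik, 6.88 for 1700023A20Rik and 6.59 for 1700011B04Rik, just outside. All 6 had their highest mean in round spermatids. The 63 genes below the rule had a median second highest array of 4.12, and 38 of them stayed under 5. The widest ranges were those of 1700006A11Rik, of 1700024J04Rik, with 11.58 in RS and 3.41 in pL, and of 1700003H04Rik, with 12.47 in RS and 4.38 in pL. The narrowest was that of 1700123O20Rik, between 9.88 in RS and 9.22 in mP with SDs up to 0.74 within fractions, followed by 1700066M21Rik, between 11.02 in lP and 9.57 in LZ, and by the lncRNA 1700034G24Rik, between 4.03 in LZ and 6.33 in Sp. More than 1 probe set past the rule was present for 16 members, and in 3 of these the probe sets peaked in different fractions. Those of 1700008J07Rik peaked in RS at 12.24 and in lP at 7.16, those of 1700066M21Rik in lP at 11.02 and in RS at 9.53, and those of 1700017B05Rik in lP at 10.82 and in mP at 7.04.

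Arrays matched by equal signals to the same project in the study's supplement deviated together from their fraction means. The correlation of their deviations was above 0.1 in 21 of 21 pairs of arrays of different fractions (median 0.439), against 26 of 112 pairs from different projects. Within projects that held both fractions, the median difference of the members was -1.88, -1.66 and -1.03 for pL against Sp, 1.21 and 1.86 for LZ against pL, 2.29 for mP against LZ, 0.86 and 0.62 for D against mP and 1.66 and 1.57 for RS against D. All had the direction of the pooled medians of -1.23, 1.09, 1.65, 0.75 and 1.53. With the project as a block, 52, 43, 64, 19 and 63 members were called in the 5 comparisons in this order, against 8, 24, 63, 11 and 48 without it.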

How the data were processed

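Affymetrix MOE430 version 2 arrays (20) were hybridised with RNA of 8 sorted testis fractions. The authors deposited linear intensity values made with GC-RMA, whose version was not named in the sources read here. The labels give an age of 10 to 16 weeks. The table held 45037 probe sets, of which 932 had several symbols and 9160 none in the platform annotation and were not used for members. Here the values were taken to log2, and a gene was read from its probe set of highest mean. No replicate number is given for the single early- and late-pachytene arrays.

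The 8 fractions were fitted as groups with limma 3.58.1 in R 4.3.3 (lmFit, contrasts.fit, eBayes, two-sided), over 22396 probe sets reaching a log2 signal of 5 on 2 or more arrays, and p-values were adjusted by the Benjamini-Hochberg method over all of them. The labels call the arrays biological replicates. The number of arrays limits the precision, and fractions with 1 array were only described. The fits were also run on simulated arrays with independent noise. That run cannot speak to deviations that arrays of a project shared. Genes were named by rule: per fraction of peak the 3 members of highest signal (6 for round spermatids), per comparison the 6 largest called differences in each direction without overlap of arrays, members on X or Y, those at the edge of the signal rule, those with discordant probe sets, and the widest and narrowest. The members, lists and tests were chosen with earlier results of these data known. Projects of arrays were taken from columns with equal signals in the study's supplement. Alternatives were other normalizations, filters, floors, moderation, blocks, signal rules and leaving out arrays, and leaving out Sp 1 and Sp 2 together and the count of spermatogonia peaks under all settings were added after the data were seen. Promoters came from RefSeq. Python 3.11.15 with numpy 2.4.6, pandas 2.3.3 and matplotlib 3.10.9 was used.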

Additional observations from a re-analysis of the deposited data

Results flagged for a closer look

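Among 118 sets of 4 arrays (spermatogonia or round spermatids) of the named members and of the median over all members, 4 held an array whose gap to its nearest neighbour exceeded the critical share of the range of Dixon's test. Chance alone flags about 1 set in 20. 1700015G11Rik was highest on RS 1, at 11.21 against 9.70 on the next array. 1700028J19Rik was lowest on RS 1, at 12 against 12.93. 1700007E05Rik was lowest on RS 1, at 8.58 against 10.42. 1700063H04Rik was highest on Sp 2, at 3.78 against 3.14, both low signals. Of the 4 far arrays 3 were RS 1. Among the RS arrays it had the highest protamine and transition protein signal, 14.63. It also had the highest summed signal of spermatogonial markers, 10.03, and of Sertoli cell markers, 12.40. The part of these signals in the flagged values was not tested.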

How the results depend on the processing

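For pre-leptotene against spermatogonia 8 members were called, and another quantile normalization, no filter on low signals and a floor at log2 5 each gave 0, median centring 2, the array project as a block 52, and leaving out Sp 1 and Sp 2 together 0. For leptotene-zygotene against pre-leptotene 24 were called, with 6 without the filter and 43 with the project as a block. For diplotene against mid-pachytene 11 were called, with 19 with the project as a block and 7 at a signal rule of log2 8. For round spermatids against diplotene 48 were called, with 26 without the filter. Deviations of arrays with the same replicate number correlated above 0.1 in 33 of 37 pairs (median 0.335, lowest -0.172), against 14 of 96 pairs with different numbers (median -0.115), and those of the same project in 21 of 21. Same-numbered arrays thus shared deviations, but not in every pair, and the labels name no shared batch, so the number was not taken as a pairing. Number and project overlapped in part. Sp 1, pL 1 and LZ 1 came from the same project, and mP 1, D 1 and RS 1 from another. With the replicate block 54, 38, 75, 16 and 79 members were called in the 5 comparisons in chronological order, against 8, 24, 63, 11 and 48. With 1 array left out the counts ran from 0 to 45, 1 to 36, 15 to 71, 1 to 15 and 12 to 65 in the same order, and the median difference of the members kept its sign. Members peaking in round spermatids were 85 to 94, against 91, those from mid-pachytene on 115 to 124, against 121, and those in spermatogonia 11 to 20, against 14. With Sp 1 and Sp 2 left out together these counts were 104, 134 and 1. Of the 35 differences of named members, 0 changed sign, 10 were called with every array left out in turn, and 25 were not called without some array. Under the other settings 34 of 251 values were no longer called. The cause of these changes was not tested. Signals near background limit the low members, and their fold changes are uncertain.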
